A study of Mus musculus with 20 samples.

Results

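A set of well-known long noncoding RNAs were followed across 20 RNA-sequencing libraries of whole mouse aorta: Neat1, Malat1, Meg3, H19, Gas5, Kcnq1ot1, Rian and Dnm3os. They are 8 of the 55421 genes counted, of which 9963 are classed as long noncoding in the files. The rows were taken by gene name, and the members were chosen by their count values, since they were proposed with earlier results of these data in view and several jump between 1 count or fewer and high counts from library to library. That pattern is described below with no test. All mice were C57BL/6. There were 4 groups of 5 libraries: mice with floxed alleles of the nuclear receptor gene Ppara (Pparafl/fl) at 2 months, the same genotype at 28 months, and mice of either age that lack Ppara in smooth muscle (Pparadelta_SMC, also written Ppara△SMC, called the knockout here). No treatment was named for any group, and all groups were whole aorta. The Cre driver, the deleted exon, and whether animals were pooled were not given in the sources used here, so p-values measure the spread between these libraries, which may be partly technical.

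Long noncoding RNAs of this set work in the nucleus or as precursors of small RNAs. Neat1 is the architectural RNA around which paraspeckles assemble, and its neighbour Malat1 is an abundant RNA of nuclear speckles. H19, Meg3, Rian and Kcnq1ot1 are imprinted, so that each is made from the allele of a single parent: H19 and Meg3 with Rian from the maternal allele, Kcnq1ot1 from the paternal allele. H19 is high before birth and falls in most adult tissues, with skeletal muscle a known exception. Gas5 carries small nucleolar RNAs (snoRNAs) in its introns, and Dnm3os is the precursor of a microRNA cluster known for its part in fibrosis.

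Total gene counts were 50046288 to 79385413 per library, and levels are given as CPM (gene counts scaled to a common library size) after TMM scaling over 20 libraries unless a pair of groups is compared. Ppara, the targeted gene, lay at 88.9 to 191 CPM in Pparafl/fl and 69.6 to 138 CPM in the knockout at 2 months, and at 25.8 to 89.3 and 47.7 to 91.0 CPM at 28 months. The genotype groups overlapped at both ages, so the count of the whole gene in whole aorta does not check the labels, and "knockout" below is the label. The smooth muscle actin Acta2 had group means of 2282 and 1580 CPM at 2 months in Pparafl/fl and knockout, but only 97.9 and 94.9 CPM at 28 months. The adipocyte enzyme Fasn stood above it in mean in all 4 groups, with means of 34156 and 39375 CPM at 2 months and 19107 and 19163 CPM at 28 months. Over libraries Fasn ranged from 1249 to 51131 CPM, the 20 skeletal muscle markers summed to between 126 and 26370 CPM, and the airway secretory gene Scgb1a1 passed 1 CPM in 9 libraries, of which 4 were Pparafl/fl at 28 months, 4 knockout at 28 months and 1 knockout at 2 months. In such bulk libraries, fewer cells of a type and less RNA per cell cannot be told apart.

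Sequences are shown where the results below turn on these genes. The first set is the ends of Neat1 and Malat1, from the GENCODE M21 transcripts. Neat1 lies on the minus strand at chr19:5824708-5845478 (GRCm38), and Malat1 on the same strand at chr19:5795690-5802672. The long Neat1 transcript, Neat1-201, is 20771 bases in 1 exon, and the short one, Neat1-202, is 3004 bases in 2 exons, so that 85.5% of the exon bases of the long transcript lie outside the short one. Malat1-201 is 6983 bases long. The last 100 bases of Neat1-201 and bases 6606 to 6705 of Malat1-201 share 3 runs of at least 10 bases, in capitals, the longest of 16 bases. The T-rich and A-rich runs are the parts known to fold into the stabilising triple helix of both RNAs, which have no ordinary poly(A) tail. The short Neat1-202 instead ends after a polyadenylation signal, in capitals.
Neat1-201: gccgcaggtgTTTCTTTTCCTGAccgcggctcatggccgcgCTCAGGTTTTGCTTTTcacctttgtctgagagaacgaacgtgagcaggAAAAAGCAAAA
Malat1-201: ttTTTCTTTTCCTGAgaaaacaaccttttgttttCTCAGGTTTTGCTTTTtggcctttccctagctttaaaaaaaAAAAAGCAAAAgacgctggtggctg
Neat1-202: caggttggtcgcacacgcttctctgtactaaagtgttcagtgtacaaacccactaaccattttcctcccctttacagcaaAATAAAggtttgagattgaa

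The second set is the mature microRNAs that 2 of the hosts carry, from RefSeq on GRCm38.p6, with the seed (bases 2 to 8) in capitals. H19, at chr7:142575529-142578143 on the minus strand, contains miR-675 in an exon. Dnm3os, at chr1:162217623-162225550 on the plus strand, contains miR-199a and miR-214. The 4 seeds of the Dnm3os microRNAs all differ, as do the 2 of miR-675. These libraries count the host RNA, not the mature microRNAs.
mmu-miR-675-5p: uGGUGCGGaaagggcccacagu
mmu-miR-675-3p: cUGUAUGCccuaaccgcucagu
mmu-miR-199a-5p: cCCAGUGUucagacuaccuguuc
mmu-miR-199a-3p: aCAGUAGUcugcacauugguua
mmu-miR-214-5p: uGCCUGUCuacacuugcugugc
mmu-miR-214-3p: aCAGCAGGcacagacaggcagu

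The third set is the promoters of Meg3 and Rian, shown because the levels of these neighbours on chromosome 12 rose and fell together over libraries. Each is 250 bases before to 50 bases after the start in RefSeq on GRCm38.p6, on the plus strand: chr12:109540746-109541045 for Meg3 and chr12:109603695-109603994 for Rian. The motifs searched on both strands: AGGTCANAGGTCA (the DR1 element that PPARα with its partner RXR is known to bind), AGGTCA, TGACGTCA (a cAMP response element), TATAAA and CCAAT. Capitals in the Meg3 promoter mark TGACGTCA, which 1.79% of the 32851 promoters in the table hold, and overlapping TATAAA matches of both strands, which 13.6% hold. CCAAT (37.4%) was also matched there and is not capitalised, and neither AGGTCA (16.3% of all promoters) nor the DR1 letters were matched in this window. AGGTCA was matched in 1 of the 8 member entries, another Meg3 entry that is not printed here. The Rian window held none of the 5. Promoter entries were found for 6 of the 8 members, 8 entries in all, and none of them held the DR1 letters, which 0.0396% of all promoters hold.
Meg3: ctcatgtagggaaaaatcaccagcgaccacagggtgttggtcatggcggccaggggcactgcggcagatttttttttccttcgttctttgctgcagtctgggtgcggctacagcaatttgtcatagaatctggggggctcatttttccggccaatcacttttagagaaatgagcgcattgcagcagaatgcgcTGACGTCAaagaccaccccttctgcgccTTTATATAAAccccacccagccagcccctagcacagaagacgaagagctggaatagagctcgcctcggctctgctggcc
Rian: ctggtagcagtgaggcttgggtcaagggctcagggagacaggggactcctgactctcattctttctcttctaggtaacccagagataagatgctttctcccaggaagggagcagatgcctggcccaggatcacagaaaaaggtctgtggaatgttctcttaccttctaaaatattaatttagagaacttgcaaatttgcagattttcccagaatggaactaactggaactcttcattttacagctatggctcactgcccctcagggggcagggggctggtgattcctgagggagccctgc

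Per kilobase of exon, Malat1 was the most abundant member, with a mean of 116 ± 51.4 CPM per kilobase (SD, n = 20 libraries). Below it the order differed between groups. Neat1 had means of 1.48 and 5.70 CPM per kilobase in young Pparafl/fl and young knockout, and of 2.90 and 30.5 in the aged groups. H19 had 2.35 and 3.35 in the young groups, and 19.1 and 10.9 in the aged groups. Meg3 (8.09 to 14.2 over the 4 group means) and Rian (6.53 to 8.66) varied less. Over all 20 libraries Gas5 had a mean of 6.64 CPM per kilobase, Kcnq1ot1, spread over 93092 bases, had 2.83, and Dnm3os had 0.171. When the 4 groups were ordered by mean CPM for each member, 22 of the 24 steps between neighbouring groups were within the larger SD of the pair. The exceptions were Neat1, which stood highest in the knockout at 28 months, and Gas5, which was lower in Pparafl/fl at 28 months than in the knockout at 2 months.

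**Figure D1:**
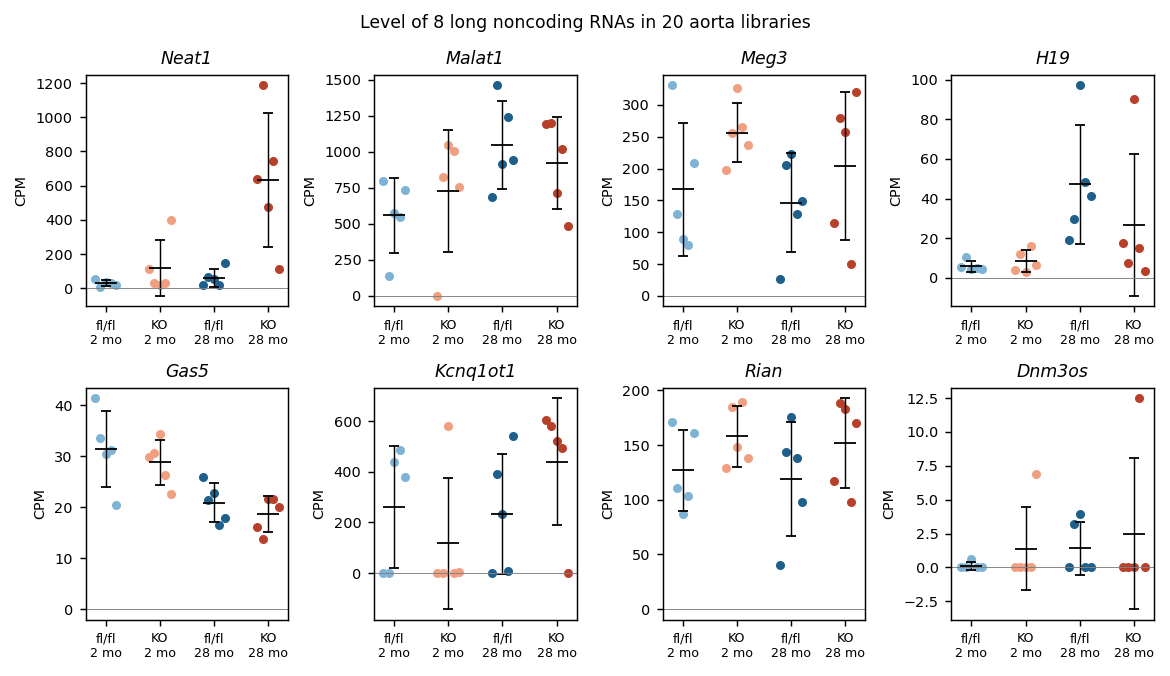
CPM (linear axis) of the 8 members in the 20 libraries, by group; points are libraries and the bar is mean ± SD (n = 5), which can extend below 0 where libraries are far apart. Neat1 reaches 1188 CPM in the knockout at 28 months, H19 does not overlap between the ages in Pparafl/fl, and Malat1, Kcnq1ot1 and Dnm3os have libraries at 0.

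The study's design asks how the members differ with age within each genotype, and with genotype at each age. Each pair of groups was tested with edgeR's quasi-likelihood F test, two-sided, with Benjamini-Hochberg adjustment over all genes tested, and a gene was called at an adjusted p under 0.05. With age in Pparafl/fl, 1 of the 7 members tested was called, H19, against 4.54% of all genes tested; 3 members had an unadjusted p under 0.05, as did 22.8% of all genes. With age in the knockout 0 of 7 were called, against 4.46% of all genes; 2 members had an unadjusted p under 0.05, as did 22.9% of all genes, and DESeq2 called 2. Between the genotypes 0 of 7 were called at 2 months (0.00485% of all genes; 1 member and 10.1% of all genes at an unadjusted p under 0.05, 0 by DESeq2) and 0 of 7 at 28 months (0% of all genes; 1 member and 3.21% of all genes at an unadjusted p under 0.05, 1 by DESeq2). The interaction of age and genotype, tested on all 20 libraries, called 0 of 8 (0% of all genes), with 0 members and 6.06% of all genes at an unadjusted p under 0.05, and 0 members by DESeq2. Dnm3os passed the filter on low counts only in the interaction fit. Over the members tested the median log2 fold change was -0.08 with age in Pparafl/fl, 0.36 with age in the knockout, 0.39 between the genotypes at 2 months and 0.34 at 28 months, against medians of all genes tested of 0.06, 0.06, 0.01 and 0.01.

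**Figure D2:**
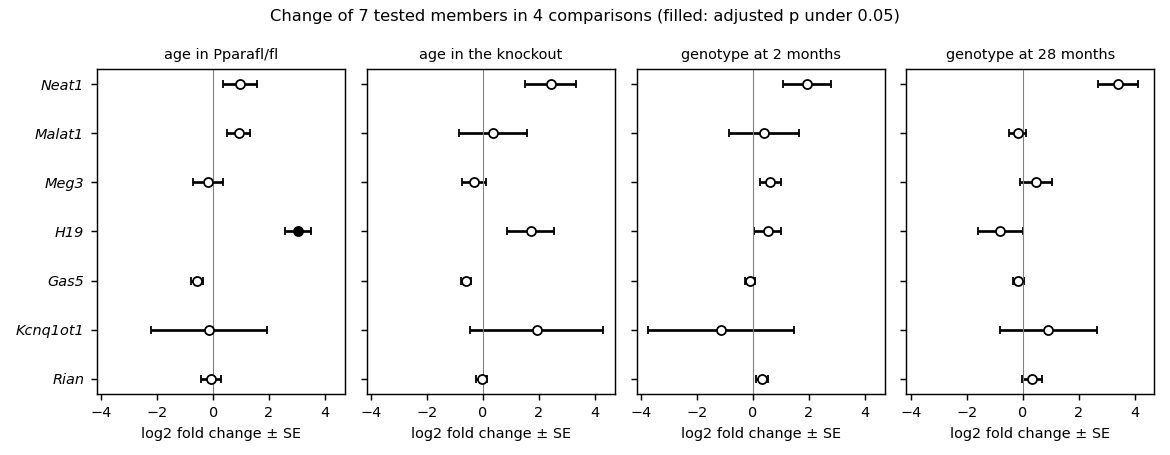
Log2 fold change ± SE of the 7 tested members in each pair of groups (edgeR; older minus younger, or knockout minus Pparafl/fl; n = 5 against 5). The only filled point, H19 with age in Pparafl/fl at 3.03, passed the test; the widest bars are those of Kcnq1ot1.

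Neat1 was highest in the aged knockout. Its CPM were 52.4, 9.93, 38.7, 33.4 and 19.6 in young Pparafl/fl (2 months), and 112, 31.9, 17.1, 29.4 and 401 in young knockout. In aged mice (28 months) they were 22.1, 63.1, 54.8, 16.7 and 145 in Pparafl/fl, and 640, 1188, 477, 746 and 113 in the knockout. Of the 5 aged knockout libraries, 4 were above every library of the other groups, while replicate 5 lay below the highest aged Pparafl/fl library, so the aged groups overlapped. With the pair scaled alone, the means at 28 months were 64.2 ± 53.5 and 678 ± 418 CPM (SD, n = 5). The log2 fold change was 3.40 (SE 0.71). The unadjusted edgeR p was 0.000627, which did not hold over all genes (adjusted p = 0.99979). DESeq2's Wald test on the same genes gave 3.40 (SE 0.64) with an adjusted p of 0.000419. The authors' deposited table lists a 10.5-fold higher Neat1 in the aged knockout with p = 1.84e-07, and Benjamini-Hochberg adjustment of that table's p-values over the 32706 genes that have one gives 4.89e-05. The call for Neat1 at 28 months thus depended on the test. The size of the difference was alike in all 3, but they rest on the same libraries, so this is not independent support.

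With age in the knockout the log2 fold change of Neat1 was 2.43 (SE 0.91, edgeR adjusted p = 0.145). DESeq2 called this difference, with an adjusted p of 0.0221. Replicate 5 of the knockout at 2 months, at 401 CPM, made the difference smaller: without that library the log2 fold change was 3.74 (SE 0.78, edgeR adjusted p = 0.0543). That library also differed in composition, with a summed level of 10521 CPM of contractile smooth muscle genes against 1208 to 7212 CPM in the other young knockouts, and 11972 against 3786 to 6812 CPM of fibroblast and matrix genes; the part of this in its Neat1 level was not tested. Between the genotypes at 2 months the log2 fold change was 1.94 (SE 0.85, edgeR adjusted p = 0.491), and 0.63 (SE 0.61, edgeR adjusted p = 0.677) without that library. With age in Pparafl/fl it was 0.97 (SE 0.60, edgeR adjusted p = 0.369), and 0.36 (SE 0.53, edgeR adjusted p = 0.735) without replicate 5 of the aged group. The difference between the 2 genotype effects, the interaction, was 1.47 (SE 1.12, edgeR adjusted p = 0.938), so a larger genotype difference in old than in young mice was not shown.

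Neat1 is known to be abundant in myeloid cells, so neutrophil genes are given beside it. The 11 neutrophil markers (S100a8, S100a9, Csf3r and others, listed after these data had been seen) summed to 60.4 to 810 CPM in the aged knockout and 50.6 to 437 CPM in aged Pparafl/fl, against 16.3 to 66.6 CPM in the young groups. None of the 11 was at 0 in every library of a group, and 7 were at 0 in at least 1 young knockout library. The aged knockout library with the least Neat1, replicate 5, also had the lowest sum of its group, 60.4 CPM. Over 20 libraries log2 Neat1 and the mean log2 level of these markers had Pearson's r = 0.52 and Spearman's rho = 0.55, given as a description with no p because the list was made after the data had been seen. After group means were removed r was 0.54, and without the 2 libraries farthest from the median of Neat1 it was 0.37. The highest sum in aged Pparafl/fl, 437 CPM in replicate 3, came with 54.8 CPM of Neat1. The part of these cells in the Neat1 result was not tested.

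Malat1 was the most even in level of the pair when the library without it is set aside. Its CPM were 798, 137, 573, 550 and 734 in young Pparafl/fl, and 0, 822, 1044, 1005 and 753 in young knockout. In aged mice they were 683, 1462, 912, 1240 and 939 in Pparafl/fl, and 1192, 1201, 710, 1021 and 481 in the knockout. Replicate 1 of the young knockout had 0 counts, where 3 counts would be 0.0571 CPM, a limit that covers counting error only. The next lowest library, replicate 2 of young Pparafl/fl, had 8532 counts. With age in Pparafl/fl the log2 fold change was 0.91 (SE 0.40, edgeR adjusted p = 0.207). With age in the knockout it was 0.36 (SE 1.20, edgeR adjusted p = 0.900), and 0.03 (SE 0.28, edgeR adjusted p = 0.969) without the library at 0. Between the genotypes it was 0.39 (SE 1.24) at 2 months, 0.71 (SE 0.41, edgeR adjusted p = 0.674) without the library at 0, and -0.19 (SE 0.30, edgeR adjusted p = 0.99979) at 28 months.

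Neat1 and Malat1 are neighbours with the same strand, and how their levels relate over libraries depended on the library with 0 counts of Malat1. Pearson's r of log2 CPM was 0.02 (permutation p = 0.947) and Spearman's rho 0.18 (permutation p = 0.448) over 20 libraries, and r was -0.07 without the 2 libraries farthest from the median of Neat1. Over the 19 libraries with Malat1 reads r was 0.37 and rho 0.24, a description added after seeing the data, so these values neither show a relation nor its absence. The ratio of Neat1 to Malat1 CPM had a median of 0.0656 in young and 0.0431 in aged Pparafl/fl. It was 0.672 in the aged knockout, with a range from 0.236 to 0.989. In the 4 young knockout libraries with Malat1 reads the median was 0.0340 and the highest 0.533. The lowest aged knockout ratio was above the highest of aged Pparafl/fl, 0.154, though Neat1 alone overlapped between these groups. That lowest ratio came from replicate 5, which had the least Malat1 of its group, 481 CPM. The share of other gene pairs whose ratios separate the aged groups was not computed, so the separation is a description only.

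Of 18 paraspeckle protein genes 0 were called with age in Pparafl/fl, and 0 between genotypes, where 1 and 0 genes of the whole table were called. In the knockout with age 2 of 18 were called, against 4.46% of all genes, both lower: Dazap1 fell from 52.1 ± 4.31 to 30.7 ± 5.14 CPM (log2 fold change -0.76, SE 0.14, edgeR adjusted p = 0.023) and Hnrnph3 from 47.7 ± 3.05 to 30.6 ± 3.68 CPM (-0.64, SE 0.13, edgeR adjusted p = 0.0272). Both are RNA-binding proteins found in paraspeckles. In young and aged Pparafl/fl the medians were 48.7 and 37.1 CPM for Dazap1 and 43.0 and 37.6 CPM for Hnrnph3. Sfpq, a core paraspeckle protein, had 226 ± 24.0 and 207 ± 21.5 CPM in aged Pparafl/fl and aged knockout (log2 fold change -0.12, SE 0.14). Of 22 nuclear speckle protein genes 0 were called in the 4 pairs. The speckle scaffold Son stood at 1121 ± 106 and 1233 ± 146 CPM in the aged groups.

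Among 13 protein-coding neighbours of Neat1 and Malat1, 1 was called with age in Pparafl/fl and 2 in the knockout, all lower. Of all genes 4.54% and 4.46% were called there. Ltbp3, which encodes a binding protein of latent TGF-β, fell from 271 ± 25.0 to 121 ± 52.6 CPM in Pparafl/fl (log2 fold change -1.17, SE 0.29, edgeR adjusted p = 0.0498) and from 282 ± 65.6 to 134 ± 41.2 CPM in the knockout (-1.07, SE 0.25, edgeR adjusted p = 0.0432). Ehbp1l1 was called in the knockout, where it fell from 143 ± 25.3 to 81.2 ± 9.61 CPM (-0.82, SE 0.15, edgeR adjusted p = 0.022). Its medians in young and aged Pparafl/fl were 145 and 106 CPM. Frmd8, whose gene lies next to the Neat1 start, had 29.2 ± 2.11 and 26.8 ± 4.90 CPM in young and aged Pparafl/fl. In the young knockout it ran from 20.22 to 35.92 CPM with a median of 28.24 CPM. The aged knockout had a median of 26.29 CPM and a range from 21.05 to 74.99 CPM, the highest in replicate 4.

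H19 was the member that rose with age in Pparafl/fl. Its CPM were 5.18, 10.5, 4.18, 4.70 and 4.32 at 2 months and 18.9, 29.9, 97.4, 48.3 and 41.1 at 28 months in Pparafl/fl. In the knockout they were 4.13, 11.9, 2.77, 16.0 and 6.36 at 2 months and 17.6, 7.62, 90.2, 15.0 and 3.37 at 28 months. Every aged Pparafl/fl library was above every young one, as in 3.9% of genes tested in that direction, while the knockout ages overlapped. The pair means in Pparafl/fl were 5.78 ± 2.69 and 47.3 ± 30.9 CPM (SD, n = 5), an 8.18-fold rise (log2 fold change 3.03, SE 0.47, edgeR adjusted p = 0.00768). In the knockout the log2 fold change with age was 1.71 (SE 0.83, edgeR adjusted p = 0.254), and 0.43 (SE 0.61, edgeR adjusted p = 0.742) without replicate 3 of the aged knockout. The interaction, -1.30 (SE 0.98, edgeR adjusted p = 0.937), did not pass the test, so a different age effect in the genotypes was not shown. Between the genotypes at 28 months the log2 fold change was -0.80 (SE 0.80, edgeR adjusted p = 0.99979), and -2.11 (SE 0.60, edgeR adjusted p = 0.959) without that library.

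Skeletal muscle markers moved with H19. All 20 were counted and none was at 0 in every library of a group, though 2 to 7 of them were at 0 in some library of each group. Their sum was 126 to 3848 CPM in young and 3663 to 26370 CPM in aged Pparafl/fl, and 129 to 5857 and 675 to 5794 CPM in the young and aged knockout. With age in Pparafl/fl 4 of the 20 were called higher and 0 lower, against 4.54% of all genes called in either direction. Among the 4 was Myh1, a fast skeletal myosin (15.7 ± 20.7 to 1304 ± 807 CPM, log2 fold change 6.38, SE 1.42, edgeR adjusted p = 0.0337). Over 20 libraries log2 H19 and the mean log2 level of the markers had Pearson's r = 0.78 (permutation p = 8e-05, adjusted p over 7 pairs = 0.000262) and Spearman's rho = 0.82 (permutation p = 3e-05, adjusted p = 7e-05). Without the 2 libraries farthest from the median of H19, r was 0.78, and with group means removed it was 0.54. The permutations were made over all 20 libraries regardless of group. Their p-values thus include age differences that H19 and the markers share, and the r with group means removed has no p. With the marker mean as a covariate, an alternative chosen after seeing the data, the age difference of H19 in Pparafl/fl was 1.94 (SE 0.80, edgeR adjusted p = 0.780); only 3 genes were called in that fit. With the adipocyte marker mean instead it was 1.91 (SE 0.53, edgeR adjusted p = 0.117). H19 was not called under either covariate, with estimates above 0. The muscle sums of young and aged Pparafl/fl barely overlapped, so age and that covariate can hardly be told apart in this pair. The lost call therefore shows neither a dependence of H19 on muscle content nor its absence.

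Igf2, the growth factor gene that shares enhancers with H19 and is made from the other parental allele, was not called with age in Pparafl/fl. Its mean was 17.5 ± 3.41 CPM in young and 13.9 ± 8.39 CPM in aged Pparafl/fl (log2 fold change -0.33, SE 0.97, edgeR adjusted p = 0.869). The library with the most H19, replicate 3 of aged Pparafl/fl at 97.4 CPM, had 0 counts of Igf2, and replicate 3 of the aged knockout, at 90.2 CPM of H19, had 2.45 CPM of Igf2. Over 20 libraries r was -0.57 (permutation p = 0.00241, adjusted p over 7 pairs = 0.00337) but Spearman's rho was -0.32 (permutation p = 0.163, adjusted p = 0.190). Without the 2 libraries farthest from the median of H19 r was -0.11, so the relation rests on those libraries. Of 10 genes listed for the Igf2-H19 domain, 7 were tested with age in Pparafl/fl and 0 were called.

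Meg3 and Rian lie in the Dlk1-Dio3 imprinted domain of chromosome 12 and are thought to be parts of a long maternal transcription unit. Their levels followed each other over libraries, less so in the young knockout. Meg3 spans chr12:109541001-109571726 and Rian chr12:109603940-109661716, both on the plus strand. Meg3 CPM were 331, 129, 89.4, 79.9 and 208 in young Pparafl/fl, 198, 256, 326, 265 and 238 in the young knockout, 26.7, 206, 223, 128 and 149 in aged Pparafl/fl, and 115, 279, 258, 49.5 and 321 in the aged knockout. Rian CPM were 172, 111, 86.9, 104 and 161 in young Pparafl/fl, 129, 185, 149, 189 and 138 in the young knockout, 40.6, 144, 175, 138 and 97.8 in aged Pparafl/fl, and 118, 189, 183, 98.1 and 171 in the aged knockout. Replicate 1 of aged Pparafl/fl was the lowest library for both, and the groups overlapped in every pair for both genes. Pearson's r of their log2 CPM was 0.91 (permutation p = 1e-05, the smallest that 100000 permutations can give; adjusted p over 7 pairs = 7e-05), Spearman's rho was 0.83 (permutation p = 3e-05, adjusted p = 7e-05), and r was 0.91 with group means removed and 0.85 without the 2 farthest libraries. Within single groups r was 0.94 in young and 0.96 in aged Pparafl/fl, 0.43 in the young knockout and 0.96 in the aged knockout. The ratio of Rian to Meg3 ran from 0.456 to 1.98 over the 20 libraries. The log2 fold changes of Meg3 were -0.18 (SE 0.54) and -0.32 (SE 0.42) with age in Pparafl/fl and knockout, and 0.63 (SE 0.37) and 0.48 (SE 0.58) between the genotypes at 2 and 28 months. Those of Rian were -0.08 (SE 0.35), -0.05 (SE 0.20), 0.33 (SE 0.21) and 0.34 (SE 0.36). When the mean of the adipocyte list was a covariate, a setting chosen after seeing the data, Rian with age in Pparafl/fl was -1.42 (SE 0.29, edgeR adjusted p = 0.0421).

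Mirg, the microRNA-containing RNA downstream of Rian, tracked Rian with r = 0.82 (permutation p = 0.00015, adjusted p over 7 pairs = 0.000262; rho = 0.69, permutation p = 0.00108, adjusted p = 0.00189), 0.72 without the 2 farthest libraries and 0.89 with group means removed. The median of its ratio to Rian was lower at 28 months, which was not tested. The ratio of Mirg to Rian CPM ran from 0.0533 to 0.0979 in young Pparafl/fl and 0.0581 to 0.0933 in the young knockout, and from 0.0298 to 0.0547 and 0.0309 to 0.0544 in the aged groups. In the knockout the ages did not overlap, and in Pparafl/fl the highest aged ratio lay just above the lowest young one. The share of other gene pairs whose ratios separate the ages was not computed. Mirg itself was not called (log2 fold change with age -0.71, SE 0.42, edgeR adjusted p = 0.343 in Pparafl/fl; -0.81, SE 0.37, edgeR adjusted p = 0.224 in the knockout). Dlk1, the paternally made gene of the domain, stood at 0.86 ± 0.63 and 0.89 ± 0.54 CPM in young and aged Pparafl/fl. Of 8 other genes listed for the domain, 6 or 7 were tested in a pair and 0 were called.

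Nerve and Schwann cell markers are given beside Rian. The 14 markers (Snap25, Stmn2, Sox10 and others, listed after these data had been seen) summed to 279.7 to 1715 CPM in young Pparafl/fl, 668 to 2172 in the young knockout, 381 to 2663 in aged Pparafl/fl and 1402 to 2767 in the aged knockout, with none at 0 in any library. Pearson's r of log2 Rian with their mean log2 level was 0.77 and rho was 0.82, likewise a description with no p, and r was 0.88 with group means removed and 0.72 without the 2 farthest libraries. The part of nerve in the levels of Meg3 and Rian was not tested.

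**Figure D3:**
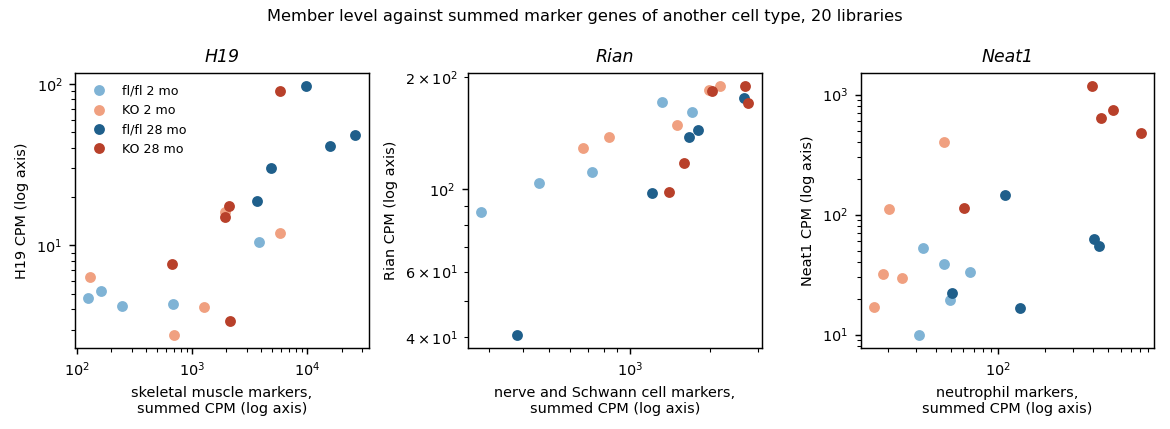
CPM of H19, Rian and Neat1 (log axes) against the summed CPM of skeletal muscle, nerve and Schwann cell, and neutrophil markers in the same 20 libraries, coloured by group. H19 and Rian rise with their marker sums (r = 0.78 and 0.77 on the log2 scale), Neat1 less closely (r = 0.52).

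Kcnq1ot1, the paternally made antisense RNA that silences the Kcnq1 domain in cis, was counted in an all-or-none way. It is annotated as 1 exon of 93092 bases at chr7:143203458-143296549 on the minus strand, inside Kcnq1 on the opposite strand. Its counts were 0, 0, 25527, 28866 and 25476 in young Pparafl/fl and 0, 0, 31197, 0 and 274 in the young knockout. At 28 months they were 0, 22848, 16489, 495 and 30664 in Pparafl/fl and 39215, 37404, 36940, 44708 and 0 in the knockout. Thus 7 libraries, in all 4 groups, had 0 counts, 2 had 274 and 495, and the other 11 had at least 16489. A count of 0 allowed at most 0.0412 to 0.0624 CPM in the 7 libraries, against 603.75 CPM in the highest library. The log2 fold changes had SEs of 1.74 to 2.62 and none was called; with age in the knockout it was 1.92 (SE 2.39, edgeR adjusted p = 0.681), and 8.63 (SE 2.69, edgeR adjusted p = 0.114) without replicate 3 of the young knockout. Kcnq1, which shares 121 exon bases with it, had reads in every library, with 2.20 to 11.8 CPM. Whether the counting used strand was not given in the sources used here, so reads of overlapping sense and antisense genes cannot be told apart. Of 12 genes listed for the Kcnq1 domain, 10 were tested in each pair and 0 were called. Cdkn1c, the growth inhibitor that Kcnq1ot1 silences, had 9.19 ± 2.80 and 7.53 ± 4.05 CPM in young and aged Pparafl/fl and 20.4 ± 1.85 and 11.5 ± 4.25 CPM in young and aged knockout (log2 fold change -0.83, SE 0.26, edgeR adjusted p = 0.096). Between the genotypes at 2 months, with that pair scaled alone, Cdkn1c had 8.73 ± 2.75 CPM in Pparafl/fl and 19.2 ± 1.98 CPM in the knockout (log2 fold change 1.14, SE 0.21), with an unadjusted edgeR p of 0.000288 that did not hold over all genes (adjusted p = 0.231).

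Gas5, the snoRNA host, was the most even of the well-counted members, with lower mean values at 28 months in both genotypes that did not pass the test. It lies at chr1:161034422-161038539 on the plus strand, and 10 annotated snoRNA genes overlap it on the same strand. Its CPM were 41.4, 33.5, 30.4, 31.2 and 20.5 in young and 26.0, 21.5, 22.7, 16.6 and 17.8 in aged Pparafl/fl, which overlap. They were 29.9, 30.6, 34.4, 26.4 and 22.5 in the young and 16.2, 13.9, 21.7, 21.7 and 20.1 in the aged knockout, where every aged library was below every young one, as in 5.17% of genes tested in that direction. The log2 fold change was -0.58 (SE 0.21, edgeR adjusted p = 0.134) in Pparafl/fl and -0.61 (SE 0.19, edgeR adjusted p = 0.0899) in the knockout, so neither passed the test. DESeq2 called the second, with an adjusted p of 0.0188. The interaction was -0.02 (SE 0.27). Between the genotypes the log2 fold change was -0.11 (SE 0.19) at 2 months and -0.16 (SE 0.21) at 28 months. Of 18 other snoRNA host genes counted, 17 were tested and 0 were called in any pair; Snhg20 had 12.5 ± 2.14 and 7.68 ± 0.97 CPM in the young and aged knockout (log2 fold change -0.70, edgeR adjusted p = 0.0665).

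Dnm3os was near the floor in most libraries. It had 0 counts in 13 libraries and 1 count in 2, and 38, 428, 186, 277 and 1130 counts in the other 5. Those were replicate 3 of young Pparafl/fl, replicate 5 of the young knockout, replicates 2 and 3 of aged Pparafl/fl and replicate 4 of the aged knockout. A count of 0 allowed at most 0.0412 to 0.0624 CPM, and the highest library had 12.5 CPM. No group had reads in more than 2 libraries above 1 count, and Dnm3os was not tested in any pair. Dnm3, the dynamin gene that holds Dnm3os on its opposite strand with no shared exon bases, was present in every library. It rose with age in the knockout from 38.0 ± 6.48 to 73.2 ± 15.9 CPM (log2 fold change 0.95, SE 0.19, edgeR adjusted p = 0.0255). In Pparafl/fl its median was 16.15 CPM at 2 months and 54.21 CPM at 28 months, a difference that was not called. Of 11 genes that neighbour or overlap Dnm3os and Gas5, 1 was called with age in the knockout, Dnm3, against 4.46% of all genes. With age in Pparafl/fl 1 of the 11 was called, against 4.54% of all genes. It was Rabgap1l, a regulator of Rab GTPases, higher at 208 ± 30.5 than at 121 ± 5.08 CPM (log2 fold change 0.77, SE 0.12, edgeR adjusted p = 0.00887). In the knockout the median of Rabgap1l was 156 CPM at 2 months and 242 CPM at 28 months.

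The jump between 0 and high counts went with the number of exons in the annotation. Genes were called unevenly counted when they had at most 1 count in at least 1 library and at least 500 in at least 2. Where 2 libraries or more reached 500 counts, protein-coding genes were split as follows: 177 of 187 with 1 exon (94.7%), 86 of 400 with 2 exons (21.5%) and 145 of 12227 with 3 or more (1.19%) were uneven. Among long noncoding genes the numbers were 29 of 33 (87.9%), 20 of 120 (16.7%) and 9 of 240 (3.75%). Kcnq1ot1, with 1 exon, and Malat1, with at most 2, met this definition. Meg3, Rian, Gas5, H19 and Neat1, with 4 to 12 exons in their most-spliced transcript, had no library at 0 or 1; Dnm3os, with 4 exons, had 1 library at 500 or more and so fell outside it. Of the 414 uneven single-exon genes of all gene classes in the table, 134 to 258 were at 0 or 1 in a given library. The number differed with age: it was 230 to 241 in young Pparafl/fl and 236 to 258 in the young knockout. It was 134 to 228 in aged Pparafl/fl and 180 to 236 in the aged knockout, where only replicate 5 passed 208. Every aged library but that 1 was below every young library. The 7 libraries at 0 for Kcnq1ot1 all had at most 1 count of Dnm3os, as did 15 of all 20 libraries. The library at 0 for Malat1 was among the 7. The members were chosen with such counts in view, so this overlap is a description only. What sets this pattern was not tested, and it limits what the levels of Malat1, Kcnq1ot1 and Dnm3os can show. Neat1 was classed here by its most-spliced transcript, but its long transcript has 1 exon, and 85.5% of that lies outside the short one. Its counts ran from 620 to 76453 over libraries, and the part of this pattern in them was not tested.

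**Figure D4:**
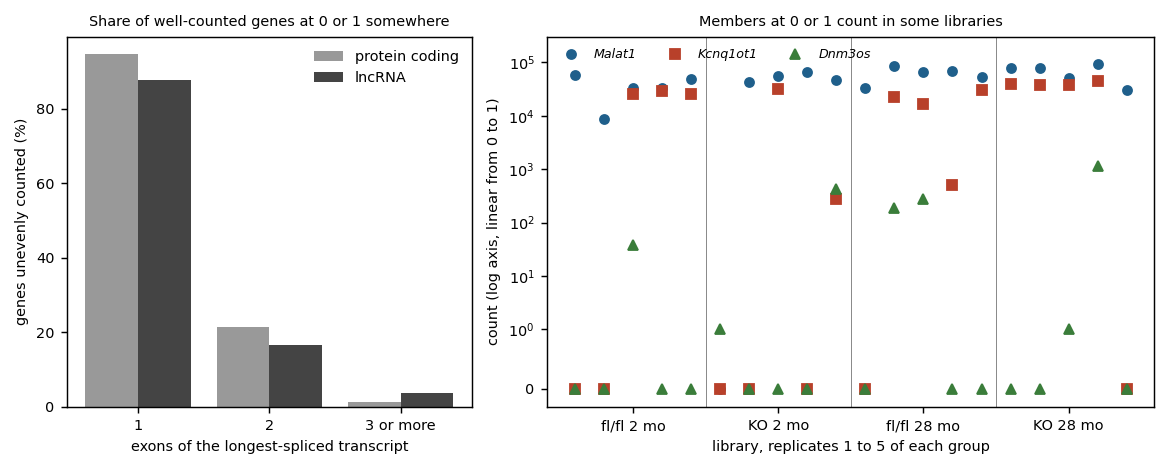
Left, share (%) of coding and long noncoding genes reaching 500 counts in 2 libraries that had at most 1 count in another, by number of exons; right, counts of Malat1, Kcnq1ot1 and Dnm3os in each library (log axis above 1). The share is 94.7% for protein-coding genes of 1 exon and 1.19% for those of 3 or more; Kcnq1ot1 is at 0 in 7 libraries, in all 4 groups.

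Among 43 other known long noncoding RNAs in the table, 3 of 29 tested were called with age in Pparafl/fl and 1 of 30 in the knockout. Of all genes 4.54% and 4.46% were called there. Between the genotypes 0 of 28 at 2 months and 0 of 31 at 28 months were called, against 0.00485% and 0% of all genes. Carmn, a smooth muscle RNA, fell from 87.2 ± 33.5 to 20.9 ± 5.88 CPM in Pparafl/fl (log2 fold change -2.06, SE 0.31, edgeR adjusted p = 0.00672). Bvht, known from heart development, fell from 17.5 ± 6.77 to 4.63 ± 2.37 CPM (-1.91, SE 0.40, edgeR adjusted p = 0.0271), and Dio3os rose from 0.47 ± 0.12 to 1.44 ± 0.69 CPM (1.62, SE 0.39, edgeR adjusted p = 0.0437). Fendrr, which is needed for heart and body wall development, rose in the knockout from 0.98 ± 0.47 to 3.44 ± 1.19 CPM (1.81, SE 0.43, edgeR adjusted p = 0.043). Contractile smooth muscle genes moved the same way as Carmn and Bvht: 11 of 12 were called lower with age in Pparafl/fl and 4 of 12 in the knockout. Among 23 other imprinted genes, 19 were tested and 2 called, both with age in the knockout, against 4.46% of all genes there. Peg3, a zinc finger gene, rose from 82.6 ± 58.0 to 296 ± 87.2 CPM (1.84, SE 0.40, edgeR adjusted p = 0.0324). Nnat, a small membrane protein gene, fell from 13.6 ± 5.22 to 5.60 ± 1.37 CPM (-1.28, SE 0.31, edgeR adjusted p = 0.0451). In young and aged Pparafl/fl the medians were 119 and 294 CPM for Peg3 and 6.02 and 4.89 CPM for Nnat.

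The genes most like each member over the 20 libraries were found by Pearson's r of log2 CPM among 15300 genes and are a description with no p. H19 was most like Smtnl1 (r = 0.90), Tbx15 (0.88) and Myom3 (0.87), the last a protein of the muscle M-band. Rian was most like Kif26b (0.97), Clip3 (0.96) and Nalcn, a sodium leak channel (0.93). Meg3 was most like Kcns2 (0.91), the microtubule protein Map1a (0.91) and Kif26b (0.90). Gas5 was most like Pfdn5 (0.83), a prefoldin subunit, Naa10 (0.81) and Cetn3 (0.80). Neat1 had lower values, with Xkr8 (0.75), Frk (0.73) and Pgm3 (0.73). Malat1 was most like Tmem177 (0.86), Cggbp1 (0.85) and Akap5 (0.85). Replicate 1 of the young knockout had no Malat1 reads, so these values of Malat1 may rest largely on that library. They were not computed without it. Kcnq1ot1 and Dnm3os, whose libraries fall into those with and without reads, were most like Slc30a7 (0.73), S100a9 (0.73) and Il1f9 (0.71), and like Ptp4a2 (0.83), Dnajc3 (0.73) and Mrc1 (0.73).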

How the data were processed

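Whole-aorta total RNA was sequenced in 20 libraries, prepared with a stranded kit per the labels' protocols, which name islets in 1 place. The authors deposited raw gene counts per library in 4 tables of all genes, 1 per pair of groups; a library had the same counts in each table that holds it (0 differing). HISAT, featureCounts 1.5.0-p3, DESeq 1.8.3 and GRCm38 are named in the submitters' processing notes; the strand setting was not given in the sources used here. The authors deposited their own fold changes (signed ratio) and p-values, cited only as such; their group-average columns, a scaled score as deposited by the authors, were not used.

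Of 55421 genes, 55154 (99.5%) matched GENCODE M21 by identifier. Members, lists and tests were chosen with earlier results of these data known. edgeR 4.0.16 in R 4.3.3 was used with TMM scaling, filterByExpr and the quasi-likelihood F test on each pair alone; the interaction used all libraries. SE is the log2 fold change over the root of F. DESeq2 1.42.0 was an alternative. Depth was 50046288 to 79385413 counts; floors of 3 counts cover counting error only. Fits were tested on simulated data. Named genes: the members; per list, up to 3 called genes with the smallest adjusted p, else the 2 with the most counts; per member, the 3 most alike. Other genes named (Igf2, Dlk1, Mirg, Cdkn1c, Kcnq1, Frmd8, Sfpq, Son, Snhg20) were chosen after their values were seen or as the members' known partners. Correlations used 100000 permutations over 7 pairs. Libraries were permuted regardless of group, so these p-values include differences between groups that both sides of a pair share. No count column was left unused.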

Additional observations from a re-analysis of the deposited data

Results flagged for a closer look

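In 9 of the 32 sets of 5 libraries (8 members in 4 groups), 1 library stood apart: its gap to the nearest other, divided by the range of the group, was above 0.71, Dixon's critical value. This served as a rule for flagging and not as a test. The members were chosen with such jumps in view, so the number of flags cannot be set against chance. Neat1 was 401 CPM in replicate 5 of the young knockout, against 17.1 to 112 in the others. Malat1 was 0 CPM in replicate 1 of the young knockout, against 753 to 1044. H19 was 10.5 CPM in replicate 2 of young Pparafl/fl, against 4.18 to 5.18, and 90.2 CPM in replicate 3 of the aged knockout, against 3.37 to 17.6. Kcnq1ot1 was 581 CPM in replicate 3 of the young knockout, where the others were at 0 to 4.42, and 0 CPM in replicate 5 of the aged knockout, where the others were at 494 to 604. Dnm3os was 0.654 CPM in replicate 3 of young Pparafl/fl, 6.90 CPM in replicate 5 of the young knockout and 12.5 CPM in replicate 4 of the aged knockout, with every other library of those groups at 0.0190 CPM or lower. Replicate 5 of the young knockout is the library with the most Neat1 of its group and the only 1 of that group with more than 1 count of Dnm3os. Its marker sums lay outside the range of the other 4, a looser criterion than the rule above. They were 10521 CPM for contractile smooth muscle genes (1208 to 7212 in the other 4) and 11972 CPM for fibroblast and matrix genes (3786 to 6812). Neutrophil markers summed to 45.5 CPM (16.3 to 24.7) and skeletal muscle markers to 129 CPM (702 to 5857). Their part in these values was not tested.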

How the results depend on the processing

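With DESeq2's size factors, without a filter, with a filter at a mean of 50 counts, or in 1 fit of 20 libraries, no member's direction or call changed. DESeq2's Wald test called 2 members with age in the knockout (0 in edgeR: Neat1 and Gas5) and 1 between the genotypes at 28 months (0 in edgeR: Neat1); over all genes it called 2987, 3023, 430, 20 and 257 for age in Pparafl/fl, age in the knockout, genotype at 2 and at 28 months and the interaction, where edgeR called 953, 934, 1, 0 and 0. Without a filter edgeR called 561 and 481 genes with age, and with 50 counts 991 and 1000. Leaving out 1 library at a time never changed a count of members called (1 for age in Pparafl/fl, 0 elsewhere), and H19 with age in Pparafl/fl stayed between 2.57 and 3.36. It turned the sign of uncalled log2 fold changes: with age in Pparafl/fl, Meg3 (-0.39 to 0.21), Kcnq1ot1 (-0.71 to 0.19) and Rian (-0.27 to 0.13); Rian with age in the knockout (-0.14 to 0.081); Gas5 between genotypes at 2 months (-0.25 to 0.0048); and in the interaction Meg3 (-0.54 to 0.11), Gas5 (-0.16 to 0.11), Rian (-0.17 to 0.24) and Dnm3os (-11.35 to 5.21).

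3 settings were added after seeing the data. With the skeletal muscle mean as a covariate 0 members were called with age in Pparafl/fl, Kcnq1ot1 turned to 2.73 there and to 0.090 between genotypes at 2 months, and H19 to 0.61 between genotypes at 28 months. With the adipocyte mean the count with age in Pparafl/fl stayed at 1, but the member was Rian and not H19; with age in the knockout Meg3 turned to 0.51 and Rian to 0.39, and between genotypes at 2 months Kcnq1ot1 to 3.75. Without libraries with Scgb1a1 above 1 CPM, which leaves 1 library in each aged group, assumed to vary like the others, 0 members were called with age in Pparafl/fl, where Kcnq1ot1 turned to 1.00; with age in the knockout Neat1 turned to -0.073, Malat1 to -0.92, Meg3 to 0.24, H19 to -1.46, Kcnq1ot1 to -16.09 and Rian to 0.045, none of them called. With 1 library in each aged group these values describe those libraries alone, and neither a lost call nor a turned sign there shows a dependence on airway tissue. The cause was not tested. No paired analysis was possible because the labels give no replicate numbers that are shared between groups.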
